A study of Mus musculus and Homo sapiens with 20 samples.

Results

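The chemokine and chemokine receptor genes were taken as the autosomal protein-coding genes of the GENCODE annotation whose symbols begin with Ccl, Cxcl, Ccr or Cxcr followed by a number. In mouse the rule found 50 of 20807 genes, which were 23 CC ligands, 12 CXC ligands, 10 CC receptors and 5 CXC receptors. In human it found 53 of 19111 genes, with 24, 14, 10 and 5 in the same classes. Cxcr3 lies on the X chromosome in both species and was therefore not a member. For each gene the measurement was promoter coverage, the percent of the 2001 bases from 1 kb before to 1 kb after its annotated start that lay under called peaks.

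Chemokines are small secreted proteins that guide migrating cells along concentration gradients, and their receptors are G-protein-coupled proteins on the surface of the responding cells. Homeostatic chemokines place cells in bone marrow and lymphoid organs, of which CXCL12 and its receptor CXCR4, which hold haematopoietic progenitors in the marrow, are the best known pair. Inflammatory chemokines are switched on by infection or injury, and many of their genes stand in tandem arrays. The marks measured here are both laid down by Polycomb complexes at silent or poised genes: ubiquitin on a lysine of histone H2A (H2AK119ub), added by the first Polycomb complex, and trimethylation of a lysine of histone H3 (H3K27me3), added by the second.

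The peak lists came from CUT&Tag, in which an antibody brings a transposase to the marked chromatin of permeabilized cells, and there were 20 libraries in 10 groups of 2. Mouse embryonic stem (mES) cells and haematopoietic stem and progenitor cells (HSPCs) were each profiled for both marks with intact Tet2 (wild type, WT) or without it (Tet2 knockout, KO), and K562 cells, a human leukaemia line, were profiled for H2AK119ub after nucleofection with siControl or siMBD6. The question behind the comparisons was whether loss of Tet2, an oxidase of 5-methylcytosine, or depletion of MBD6, which the study links to H2AK119 deubiquitylation, changes where the marks lie. The mES lines were kept with LIF, CHIR99021 and PD0325901, so each genotype is a cultured line, and the HSPCs were Lin-c-Kit+ cells drawn by magnetic sorting from the bone marrow of mice aged 6 to 8 weeks, a mixture of progenitor types. The labels do not say whether the replicates were separate cultures or animals, so the spread between them may be technical. In such bulk lists a mark carried by fewer cells and a weaker mark in each cell cannot be told apart.

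Most of the promoters of this family are poor in CpG. The ratio of observed to expected CpG in the promoter window had a median of 0.206 over the 50 mouse members and 0.486 over all genes, and 5 members (Cxcr4, Cxcl12, Cxcl14, Ccr9 and Ccl25), or 10% of them, reached 0.6, against 35% of all genes. In human the medians were 0.184 and 0.618, and 6 of the 53 members reached 0.6. The sequences below are the 250 bases before a RefSeq start (GRCm38.p6), written along the gene's strand with each CG in capitals. RefSeq promoters were at hand for 36 of the 50 members. Ccr2 is shown as a CpG-poor promoter (ratio 0.113), Cxcr4 as 1 of the 5 CpG-rich members, and Cxcl2, Cxcl3 and Ccl12 because the results turn on them, a choice made with their values known. They hold 1, 19, 9, 7 and 1 CG in that order. Ccr2 lies at chr9:124101933-124102182 (plus), Cxcr4 at chr1:128592300-128592549 (minus), Cxcl2 at chr5:90903649-90903898 (plus), Cxcl3 at chr5:90785851-90786100 (plus) and Ccl12 at chr11:82101595-82101844 (plus).
Ccr2: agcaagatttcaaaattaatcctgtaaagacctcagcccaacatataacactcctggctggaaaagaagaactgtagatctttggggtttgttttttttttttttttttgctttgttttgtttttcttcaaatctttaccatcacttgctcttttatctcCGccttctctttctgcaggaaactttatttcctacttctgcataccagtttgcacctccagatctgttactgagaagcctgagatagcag
Cxcr4: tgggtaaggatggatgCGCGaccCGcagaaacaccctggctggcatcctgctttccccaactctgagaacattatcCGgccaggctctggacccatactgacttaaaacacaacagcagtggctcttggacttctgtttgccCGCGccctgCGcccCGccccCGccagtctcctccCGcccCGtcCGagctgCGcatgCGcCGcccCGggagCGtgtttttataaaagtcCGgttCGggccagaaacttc
Cxcl2: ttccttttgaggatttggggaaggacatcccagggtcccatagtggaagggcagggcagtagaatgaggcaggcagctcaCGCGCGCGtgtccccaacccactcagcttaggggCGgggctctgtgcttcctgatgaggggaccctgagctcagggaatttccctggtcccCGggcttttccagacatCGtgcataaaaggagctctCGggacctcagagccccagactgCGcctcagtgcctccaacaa
Cxcl3: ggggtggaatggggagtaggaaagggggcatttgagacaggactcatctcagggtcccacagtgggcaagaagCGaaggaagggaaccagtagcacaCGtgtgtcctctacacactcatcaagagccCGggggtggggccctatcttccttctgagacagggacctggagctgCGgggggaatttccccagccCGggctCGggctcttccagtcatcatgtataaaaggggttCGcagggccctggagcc
Ccl12: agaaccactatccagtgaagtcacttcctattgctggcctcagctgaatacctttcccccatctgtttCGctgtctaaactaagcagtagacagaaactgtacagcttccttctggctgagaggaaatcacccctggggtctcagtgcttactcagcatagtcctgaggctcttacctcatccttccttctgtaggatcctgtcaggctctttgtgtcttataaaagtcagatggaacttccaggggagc

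Among the mouse members coverage was higher at CpG-rich promoters. The 5 CpG-rich promoters averaged 76.5% to 82.8% coverage by H2AK119ub over the mES libraries and 70.3% to 86.9% over the HSPC libraries, while the other 45 averaged 27.1% to 31.2% and 19.3% to 25.4%. Over all genes the CpG-rich windows averaged 49.6% to 52.5% in mES cells against 61.1% to 71.8% in HSPCs, and the others 39.4% to 40.6% and 31.5% to 38.9%. Across the 50 members, which share libraries and in part neighbourhoods, Spearman's rho between the CpG ratio and mean coverage was 0.526 for H2AK119ub and 0.462 for H3K27me3 in mES cells, and 0.641 and 0.448 in HSPCs. In K562 the 6 CpG-rich members averaged 14.1% to 27.1% by H2AK119ub and the other 47 averaged 11.9% to 19%, which overlap, and rho was 0.261. Over all human genes the order was the reverse, with 10.7% to 15.3% at CpG-rich windows and 21.3% to 27.7% at the others. In mouse the scatter had exceptions on both sides. Ccl17, with a ratio of 0.147, was fully covered by H2AK119ub in all 4 mES libraries, and Ccl25, with the highest ratio of 0.939, had no H3K27me3 in any mES library. The window of Ccl25 also holds the start of Elavl1, 203 bp away on the other strand, and those of Ccr9 and Cxcl16 hold the starts of Slc6a20a and Zmynd15, so peaks there cannot be assigned to one gene.

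**Figure D1:**
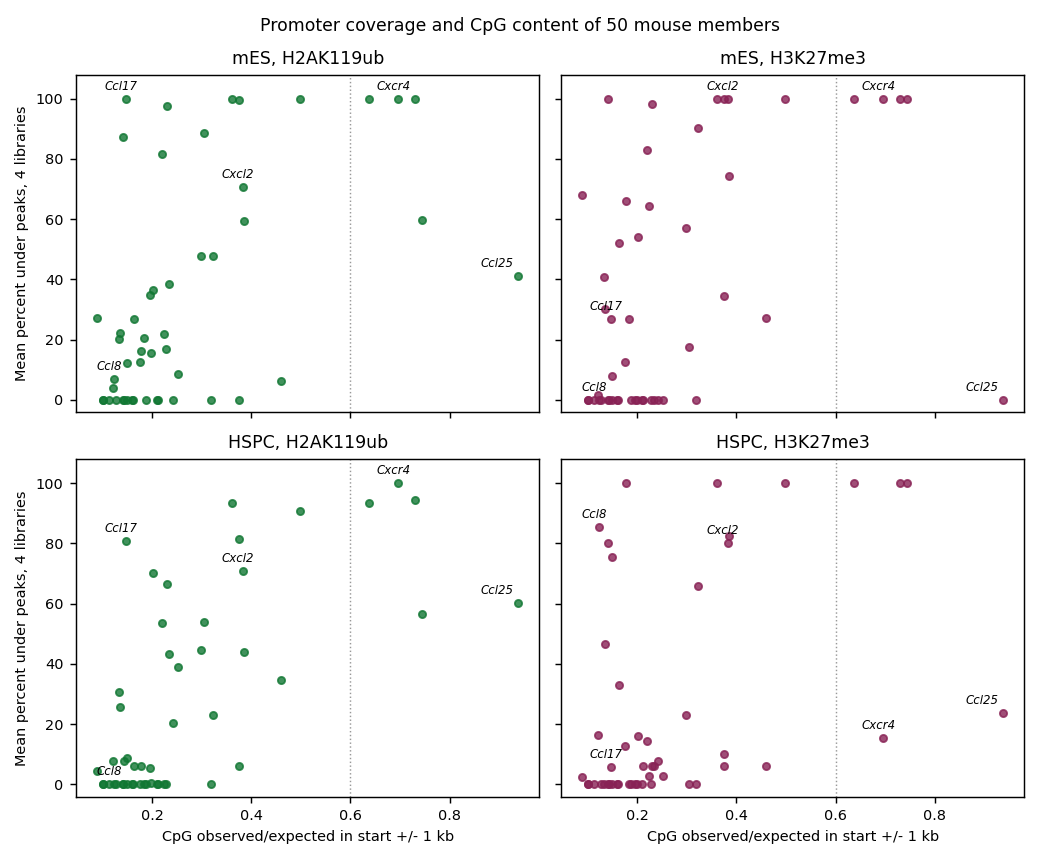
Mean promoter coverage over 4 libraries (vertical axis, percent of the start ± 1 kb under peaks) against the observed/expected CpG ratio of the same window (horizontal axis) for the 50 mouse members, by cell type and mark, with a dotted line at 0.6. Right of the line only Ccl25 in mES cells, and Ccl25 and Cxcr4 in HSPCs, sit low for H3K27me3, and members with ratios under 0.2 range from 0% to 100%.

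Some features of the whole series bear on every value. The lists held 85121 to 167378 peaks, covered 130.8 to 258.8 Mb of the autosomes and carried no read counts, so depth is unknown. Between 30.4% and 41.4% of the peaks were exactly 501 bp wide, and such a peak fills 25% of a promoter window. In the H3K27me3 lists of KO HSPCs 17.8% of peaks lay off the autosomes, against 0.402% to 2.27% in the other mouse libraries, and the part of this in the autosomal values below was not tested. The labelled cell types were checked on marker promoters. The mES markers Pou5f1, Nanog and Sox2 were fully covered by H3K27me3 in all 4 HSPC libraries and at 0% to 11.1% in mES cells, whereas the haematopoietic regulators Spi1 and Myb were fully covered in mES cells and at 0% to 27.3% in HSPCs. Over the whole lists, the 5 mES markers averaged 80% in each HSPC library and 17.6% to 22.2% in mES libraries, and the 7 HSPC markers 25% to 33.2% and 63% to 68.2%. Not every marker followed: Esrrb was at 85.1% to 100% in mES cells too, and Kit at 0% to 44.5% there and 38.3% to 66.3% in HSPCs. Promoters of 3 markers of mature blood cells (Itgam, Ly6g and Cd3e) averaged 8.35% to 33.2% in HSPC libraries and 0% to 32.1% in mES libraries for H3K27me3. H2AK119ub did not part the cell types in this way. It averaged 57.5% to 64.4% at the mES markers in mES libraries and 34.3% to 47.9% in HSPC libraries. At the HSPC markers it averaged 56% to 64.9% and 62.8% to 70.7%. Among 4 K562 markers H2AK119ub averaged 41.2% to 53.3%, with KLF1 at 94.1% to 100% and HBG1 at 0% in all libraries.

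Across the 16 mouse libraries, 6 members had a peak in the promoter window in every one (Cxcl2, Cxcl12, Cxcl14, Cxcl16, Ccr9 and Ccr10), and 10 had none in any. The first group made up 12% of the members, below the 21.3% of all genes, and the second 20%, above the 15.2% of all genes. Among the 10 without a peak were the ligands Ccl6, Ccl9, Ccl21b, Ccl27b and Cxcl15 and the receptors Ccr1, Ccr2 and Ccr3. Ccl21b and Ccl27b have near-identical copies, Ccl21a and Ccl27a, so reads from them may not have been placed, and their zeros are uncertain. A peak was present at 26 to 31 of the 50 members per mES H2AK119ub library, or 52% to 62% of them, against 69.2% to 70.3% of all genes. For H3K27me3 in mES cells the order was the other way, with 23 to 28 members (46% to 56%) against 37.6% to 50.9% of all genes. In HSPCs it was 23 to 27 members (46% to 54%) against 65.6% to 72.7% of all genes for H2AK119ub, and 21 to 24 members (42% to 48%) against 60.5% to 62.7% for H3K27me3.

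**Figure D2:**
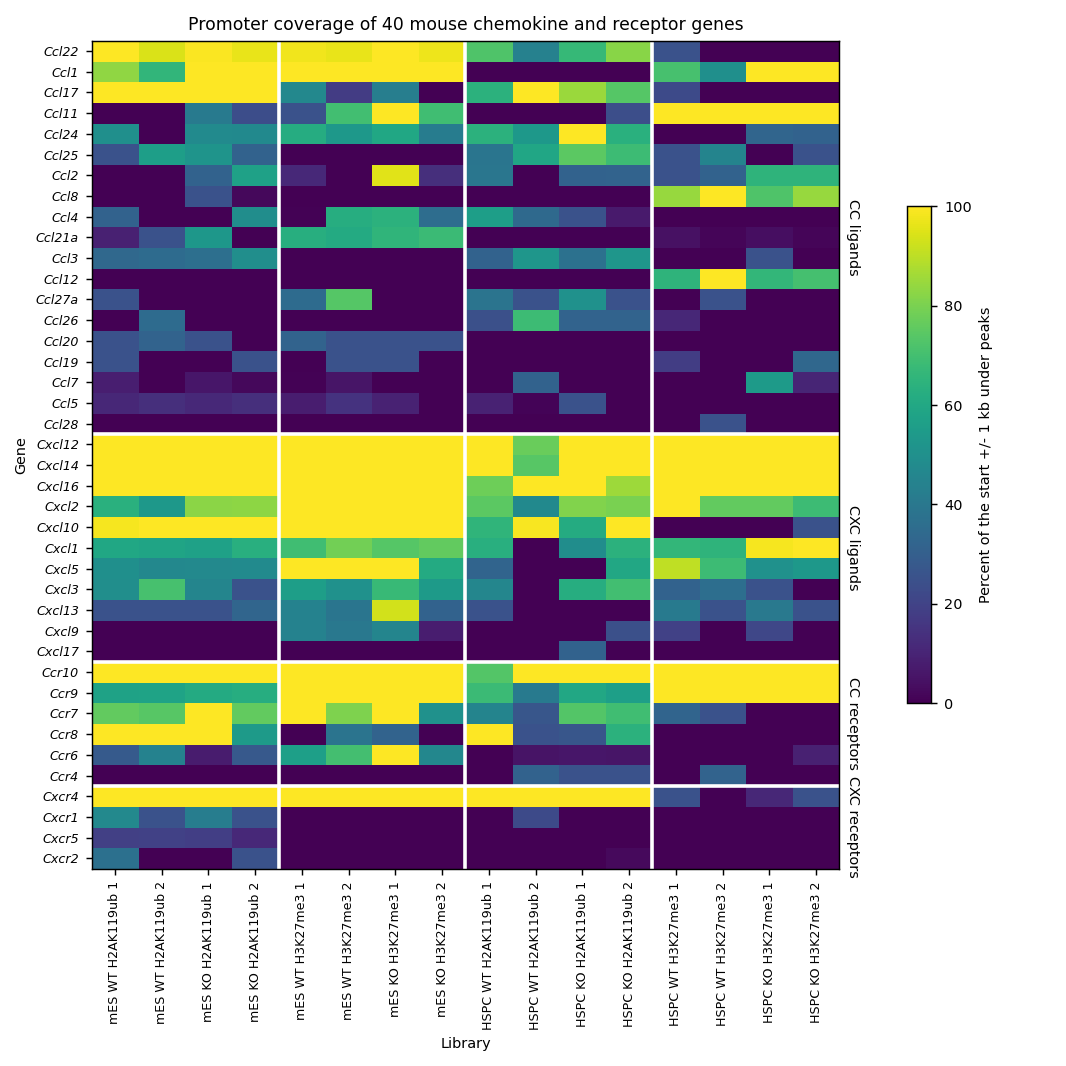
Promoter coverage (colour, percent of the start ± 1 kb under peaks) of the 40 mouse members with a peak in any library (rows, by class and then by mean) in the 16 mouse libraries (columns). Cxcl12, Cxcl14, Cxcl16 and Ccr10 are bright in every column, and Cxcr4 darkens only in the HSPC H3K27me3 columns. Cxcl10 darkens most there and less in some HSPC H2AK119ub columns. Ccl8 and Ccl12 are bright in the HSPC H3K27me3 columns alone.

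Both marks lay together at more members in mES cells than in HSPCs. In mES cells 16 members, 32%, had both marks in all 4 libraries each, close to the 32.2% of all genes. Neither mark in any mES library was found at 14 (28%, against 21.1% of all genes). In HSPCs 6 members, 12%, had both throughout, against 43.9% of all genes, and 12 had neither (24%, against 18.9% of all genes). H3K27me3 in all 4 HSPC libraries without any H2AK119ub peak was found at 4 members, Ccl1, Ccl8, Ccl12 and Ccl21a, which is 8% of the members and compares with 1.6% of all genes. Only Ccl8 and Ccl12 are clear cases, since H2AK119ub covered 37.6% to 71.6% at the principal start of Ccl1, and H3K27me3 at Ccl21a filled only 1.50% to 4.65% of the window.

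A member is called higher or lower below when the libraries of the 2 groups did not overlap and their means differed by at least 10 percentage points. With 2 libraries against 2 the smallest two-sided p of an exact permutation test is 0.333, so no difference between genotypes or siRNAs could pass a threshold of 0.05. With 4 against 4 the smallest exact permutation p is 0.0286, and after Benjamini-Hochberg adjustment over all genes none of the 4 comparisons of cell type or mark left a gene under 0.05. The smallest adjusted exact permutation p was 0.114 and 0.0874 between cell types for H2AK119ub and H3K27me3, and 0.086 and 0.0806 between marks in mES cells and HSPCs. Unadjusted, 5223, 6804, 6910 and 7375 genes lay under 0.05 in that order. The calls are thus descriptions of these libraries, and the percent of all genes called stands beside the count of members in each comparison and direction.

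Between HSPCs and mES cells, with WT and KO libraries of each pooled, H3K27me3 was lower in HSPCs at 10 members (20% of them, against 9.01% of all genes) and higher at 2 (4%, against 23.5% of all genes). For H2AK119ub 6 members (12%, against 8.80% of all genes) were lower in HSPCs and 1 was higher (2%, against 16.0% of all genes). On average over the members the promoter coverage of H3K27me3 was 9.99 percentage points lower in HSPCs (a difference of -9.99), while over all genes the difference was 7.94 points in the other direction. For H2AK119ub the mean differences were -6.08 over the members and 3.2 over all genes. All calls of this kind carried an unadjusted exact permutation p of 0.0286. The H2AK119ub lists covered 138.4 to 174.3 Mb of the autosomes in HSPCs and 234.1 to 258.8 Mb in mES cells. For H3K27me3 the covered lengths overlapped, at 163.2 to 176.6 Mb and 147.8 to 229.6 Mb. The part of covered length in the calls between cell types was not tested.

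Cxcr4, the receptor that retains progenitors in the marrow, gave one of the largest contrasts. H2AK119ub covered 100% of its promoter in all 8 mES and HSPC libraries of that mark. H3K27me3 covered 100% in the 4 mES libraries, but 25% and 0% in WT HSPCs and 11.0% and 25% in KO HSPCs. The marks thus shared this CpG-rich promoter in mES cells and parted in HSPCs. Its ligand gene Cxcl12 kept both marks, with H3K27me3 at 100% in all 8 libraries and H2AK119ub at 77.1% in the second WT HSPC library and 100% elsewhere. Among the other CXC receptors, Cxcr5, which leads B cells to follicles, had H2AK119ub at 11.5% to 19.3% in mES cells and at 0% in HSPCs. At the start of its principal transcript, 35456 bp from the outermost start used here, H2AK119ub reached 23.0% to 47.9% in the mES libraries and 5.55% to 80.4% in the HSPC libraries, so its call rests on the choice of start. Cxcr1, a receptor of neutrophil chemokines, had H2AK119ub at 25% to 47.2% in mES cells and at 0% in 3 of 4 HSPC libraries, the other having 22.5%. Its neighbour Cxcr2 had at most 36.9% in any library, and neither gene had H3K27me3 at the promoter in any library.

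Among the CC receptors, Ccr10, a receptor of skin and mucosal lymphocytes, and Ccr9, which directs cells to thymus and gut, were fully covered by H3K27me3 in all 8 libraries of that mark. H2AK119ub at Ccr9 was 57.5% to 62.5% in mES cells against 41.3% to 68.2% in HSPCs, below H3K27me3 in both. These values belong to the outermost annotated start of Ccr9, and at its RefSeq start, 88772 bp further on, H3K27me3 was at 31.4% to 66.6% in mES libraries and at 0% in HSPC libraries, and H2AK119ub at 0% to 50.2% over both. The RefSeq start was over 1 kb from the window's start at 4 of 36 members, Ccr9, Ccl1, Ccl21b and Ccr4. Ccr7, which guides dendritic and T cells to lymph nodes, had H3K27me3 at 50.8% to 100% in the mES libraries and 0% to 32.2% in the HSPC libraries, and H2AK119ub at 74.2% to 100% and 26.8% to 73.2%. Both of its marks were called lower in HSPCs. Ccr6 followed with H3K27me3 at 46.3% to 100% in mES cells against 0% to 9.35% in HSPCs. Ccr8, a receptor of regulatory T cells, carried H2AK119ub at 54.4% to 100% in the mES libraries and 25% to 100% in the HSPC libraries, with H3K27me3 at 0% to 38.5% and at 0%. The inflammatory receptors Ccr1, Ccr2 and Ccr3 had no promoter peak in any mouse library.

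The CXC ligands held the highest mean coverage of the classes. The 12 genes averaged 54.4% by H2AK119ub and 67.3% by H3K27me3 in mES cells and 46.9% and 50.1% in HSPCs, while the 23 CC ligands averaged 24.0%, 24.2%, 20.6% and 21.4%. Cxcl14 and Cxcl16, both made by epithelia among other tissues, were fully covered by H3K27me3 in all 8 libraries and had H2AK119ub at 73.9% or more. Cxcl10, an interferon-induced attractant of T cells, had H3K27me3 at 100% in all 4 mES libraries and at 0%, 0%, 0% and 25% in HSPCs. H2AK119ub at Cxcl10 was 98.8% to 100% in the mES libraries and 61.6% to 100% in the HSPC libraries, so it showed the same parting of marks as Cxcr4. Its neighbour Cxcl9, induced by the same signal, had H3K27me3 at 8.15% to 45.5% and no H2AK119ub in mES cells. The neutrophil attractants Cxcl1, Cxcl2, Cxcl3 and Cxcl5, ligands of Cxcr2, all had both marks in mES cells, and H3K27me3 was called above H2AK119ub there at Cxcl1, Cxcl2 and Cxcl5. For Cxcl2 this was 100% in all 4 H3K27me3 libraries against 53.5% to 83.0% for H2AK119ub. Cxcl13, the ligand of Cxcr5, had H2AK119ub at 25% to 32.5% in mES cells and at 25% in 1 of 4 HSPC libraries.

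Among the CC ligands, the neighbours Ccl22 and Ccl17, which share the receptor Ccr4, stood out for H2AK119ub. It covered Ccl17 fully in all 4 mES libraries and 64.4% to 100% in HSPCs, while H3K27me3 was at 0% to 46.8% in mES cells and at 0% in 3 of 4 HSPC libraries. At Ccl22 H3K27me3 went from 96.8% to 100% in mES cells to 25%, 0%, 0% and 0% in HSPCs, and H2AK119ub from 94.4% to 100% to 43.9% to 82.3%. The interval that holds both, chr8:94745590-94812036, which includes Cx3cl1, was covered by H3K27me3 at 44.4% to 70.8% in mES cells against 9.09% to 19.8% in HSPCs. Ccl24, an attractant of eosinophils, was the single member called for more H2AK119ub in HSPCs (53.4% to 100%) than in mES cells (0% to 49.8%), and it had less H3K27me3 there (0% to 32.6% against 42.0% to 61.9%). The Ccr7 ligand Ccl21a had H3K27me3 at 61.1% to 68.1% in the mES libraries and at 1.50% to 4.65% in the HSPC libraries. The HSPC libraries still had a peak of 3660 to 5243 bp nearby, which ended 908 to 971 bp from the start. In mES libraries the peak was 2546 to 3606 bp wide and lay over the start. Reads of the copy Ccl21b may be mixed with those of Ccl21a. The other ligand of Ccr7, Ccl19, was at 0% to 33.3% in all libraries. The inflammatory ligands Ccl3, Ccl4 and Ccl5 had H2AK119ub at 31.5% to 52.6%, 0% to 56.0% and 0% to 25% over the 8 libraries of that mark. Ccl20, the ligand of Ccr6, had H3K27me3 at 25% to 31.7% in mES cells and at 0% in HSPCs.

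Between marks, H2AK119ub was above H3K27me3 at 6 members in mES cells (12%, against 27.5% of all genes) and below it at 7 (14%, against 5.29% of all genes). In HSPCs it was above at 9 (18%, against 25.4% of all genes) and below at 6 (12%, against 9.93% of all genes). These comparisons share their libraries with those between cell types. The members with more H2AK119ub in both cell types were Ccl3, Ccl17 and Ccr8, and those with more H3K27me3 in both were Cxcl1 and, at its outermost start only, Ccr9. Cxcr4, Cxcl10, Ccl22, Ccl24, Ccl26 and Ccl4 were above in HSPCs and not called in mES cells, while Ccl8, Ccl11, Ccl12 and, at its outermost start only, Ccl1 were below in HSPCs.

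The interval from Ccl2 to the outermost start of Ccl1 (chr11:82035571-82305690, 270 kb) had more H3K27me3 and less H2AK119ub in HSPCs. It holds the array of monocyte and eosinophil attractants Ccl2, Ccl7, Ccl11, Ccl12, Ccl8 and Ccl1. H3K27me3 covered 53.8% and 54.3% of it in WT HSPCs and 67.2% and 61.5% in KO HSPCs, against 23.8% to 31.2% in the 4 mES libraries. H2AK119ub covered 22.1% to 25% of it in mES cells and 2.75% to 6.54% in HSPCs. Thus the ranges of the cell types did not overlap for either mark and their order was opposite. The H2AK119ub lists of HSPCs also covered less of all autosomes, as given above, and the part of this in the interval was not tested. The outermost start of Ccl1 lies 270.1 kb from the Ccl2 start, and its principal start at 144.2 kb. Peaks of both marks in mES cells were dense only beyond about the latter. The H2AK119ub contrast therefore mainly describes the stretch past the principal start of Ccl1. The promoters of Ccl12 and Ccl8 had no H3K27me3 in any mES library, but 65.2% to 100% and 72.4% to 100% in HSPCs, where both lacked H2AK119ub. These were the 2 members called higher for H3K27me3 in HSPCs, while by the mean alone 12 members were above and 19 below. Ccl11, the eosinophil attractant eotaxin, was fully covered in all 4 HSPC libraries and at 25% to 100% in mES cells. At the outermost start of Ccl1, 125878 bp from the start of its principal transcript, H2AK119ub was at 65.9% to 100% in mES cells and at 0% in HSPCs. At the principal start it was 68.1% to 100% and 37.6% to 71.6%, which overlapped, so the call at Ccl1 does not describe its main promoter. The neighbouring array of Ccl5, Ccl9, Ccl6, Ccl3 and Ccl4, on the same chromosome at chr11:83525778-83664683, had H3K27me3 over 2.85% to 6.08% in mES cells against 0.361% to 0.873% in HSPCs.

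**Figure D3:**
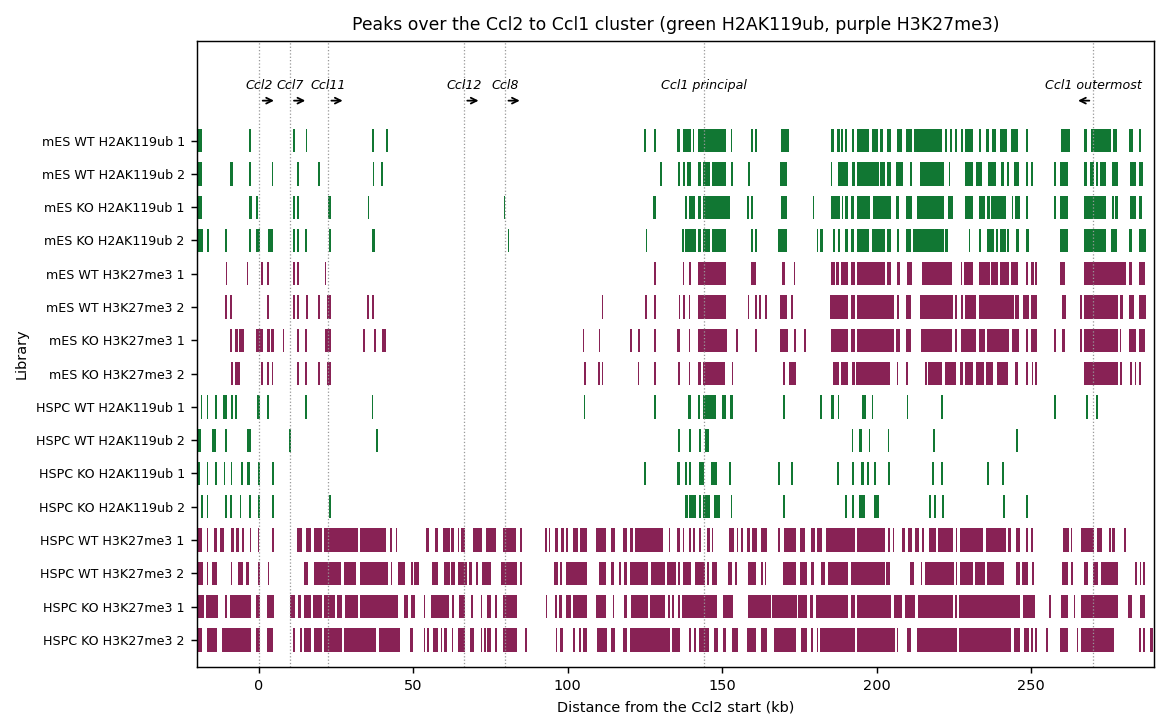
Peaks (bars) of each mouse library (rows) over the Ccl2 to Ccl1 array, placed by distance from the Ccl2 start in kb, with H2AK119ub in green, H3K27me3 in purple and dotted lines at gene starts. The 4 HSPC H3K27me3 rows have peaks across the whole stretch, including Ccl12 and Ccl8, while the mES rows are dense only beyond about the principal start of Ccl1 and the HSPC H2AK119ub rows are sparse.

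In Tet2 KO mES cells H2AK119ub was higher than in WT at 6 members (12%, against 7.43% of all genes) and lower at 2 (4%, against 6.65% of all genes). The members higher were Ccl2, Ccl11, Ccl8 and Ccl1 of the chromosome 11 array, Cxcl2 and Ccr7. Ccl2, the ligand of Ccr2 and a principal attractant of monocytes, was at 0% in both WT libraries and at 31.6% and 57.3% in the KO libraries, a mean of 44.4% ± 18.2 (SD, n = 2). Ccl11 was at 0% and 0% in WT and 41.1% and 23.6% in KO, and Ccl8 at 0% and 0% against 25% and 2.15%. All 3 rested on narrow peaks, as none of these calls was left with peaks of at least 1 kb, and that at Ccl8 was also lost at equal peak number, with peaks seen in both replicates and without the first KO library. Cxcl2 was at 63.6% and 53.5% in WT and 82.7% and 83.0% in KO, a difference of 24.3 points. Ccr7 was at 76.0% and 74.2% against 100% and 76.1%, where the second KO library exceeded WT by less than a point. The 2 members lower in KO were Cxcl3, with 49.2% and 70.8% in WT and 45.6% and 25% in KO, and Ccr6, with 28.1% and 44.5% against 7.55% and 28.0%. The call at Ccr6 was lost at its principal start, where all 4 libraries were at 100%, and without the first KO library. Over the whole gene span both differences turned, to 0.901 points for Cxcl3 and 4.79 points for Ccr6, and that of Ccr7 turned to -1.47. At the principal start of Ccl1 the KO libraries, at 68.1% and 70.9%, lay below WT, at 100% and 72.3%, a difference of -16.6 points. Averaged over all members the difference was 1.79 points, and over all genes 0.264.

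H3K27me3 in mES cells differed between genotypes at 2 members. It was higher in KO at 1 (2%, against 1.50% of all genes) and lower at 1 (2%, against 14.8% of all genes). The first was Ccl2 again, at 11.6% and 0% in WT and 95.4% and 13.3% in KO. Its KO values lay far apart from each other, and with the first KO library left out the call was lost. The second was Ccl27a, the keratinocyte chemokine that attracts Ccr10-bearing T cells, at 35.1% and 73.5% in WT and 0% in both KO libraries. At its principal start, 4035 bp away, the difference was 12.6 points in the other direction, and reads of its copy Ccl27b may be mixed with its own. The mean difference in promoter coverage was 0.229 points over the members and -5.95 over all genes. Over the gene span the order was the reverse, with -4.05 points over the members and -2.07 over all genes.

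**Figure D4:**
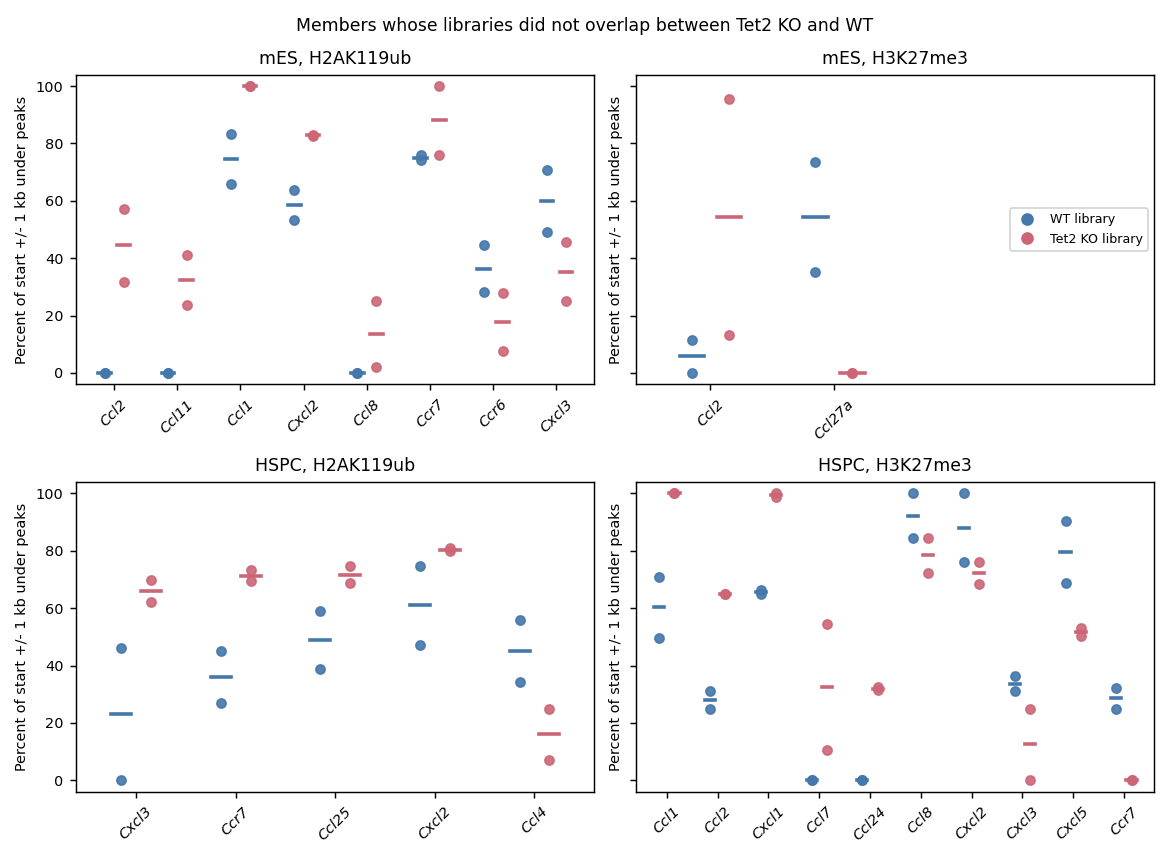
Promoter coverage (vertical axis, percent of the start ± 1 kb under peaks) of the members called between Tet2 KO and WT, with 1 point per library and a bar at the mean of 2. Cxcl3, Cxcl2 and Ccr7 stand higher in KO for H2AK119ub and lower for H3K27me3 in HSPCs, and Ccl2 stands higher in KO in 3 of the 4 panels.

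In Tet2 KO HSPCs H2AK119ub was higher at 4 members (8%, against 16.1% of all genes) and lower at 1 (2%, against 4.04% of all genes). The share of members higher was thus below that of all genes, and the mean difference was 4.43 points over the members and 5.85 over all genes. Cxcl3 had 46.1% and 0% in WT and 62.2% and 69.7% in KO, a difference of 42.9 points. Ccr7 had 44.9% and 26.8% in WT and 73.2% and 69.5% in KO, and this call was kept in all 13 alternative settings. Cxcl2 had 74.7% and 47.3% against 80.9% and 80.0%, and Ccl25, the ligand of Ccr9, 39.0% and 59.2% against 74.6% and 68.7%. At the principal start of Ccl25, 24378 bp away, all 4 libraries were at 0%. Ccl4 was lower in KO, with 56.0% and 34.3% in WT and 25% and 7.20% in KO, and over its whole span the difference turned to 3.86 points. The WT libraries of this mark covered 138.4 and 170.7 Mb of the autosomes and the KO libraries 166 and 174.3 Mb. Lists of equal peak number left all 5 calls, but they do not equalise the covered length, so its part in the calls was not tested.

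H3K27me3 in HSPCs gave the most calls of the Tet2 comparisons, with 5 members higher in KO (10%, against 5.68% of all genes) and 5 lower (10%, against 7.30% of all genes). Higher were Ccl1, Ccl2, Ccl7, Ccl24 and Cxcl1. Ccl2 was at 25% and 31.3% in WT and at 65.1% in both KO libraries, and Ccl7, its neighbour in the array, at 0% and 0% against 54.6% and 10.5%. Ccl1 was at 71.0% and 49.6% in WT and at 100% in both KO libraries, and at the principal start at 0.650% and 60.9% against 100% and 100%. Cxcl1 was at 66.4% and 64.9% in WT and 98.7% and 100% in KO, a narrow spread in both groups. Ccl24 was at 0% and 0% against 32.6% and 31.4%, a difference that turned to -2.24 points with a window of 2 kb on each side and to -2.89 over the gene span. Lower were Cxcl5, Cxcl3, Cxcl2, Ccl8 and Ccr7. Cxcl5 was at 90.5% and 68.7% in WT and 50.4% and 53.3% in KO, and Cxcl3 at 31.3% and 36.2% against 25% and 0%. Ccr7 was at 32.2% and 25% in WT and at 0% in both KO libraries. Cxcl2 was at 100% and 76.0% against 76.0% and 68.6%, where the nearer libraries differed by less than 0.1 points. Ccl8 was at 84.5% and 100% in WT and at 72.4% and 84.4% in KO, again a near touch, and the call was lost without the first KO or the second WT library. Cxcl2, Cxcl3 and Ccr7 were therefore called higher in KO for H2AK119ub and lower for H3K27me3 in HSPCs, the marks being separate libraries. Several of these calls hang on 1 library: that of Cxcl2 was lost without the second WT library for H2AK119ub and without the first WT library for H3K27me3, and that of Cxcl3 for H3K27me3 without the second KO library. The H3K27me3 call at Ccr7 was lost with peaks seen in both replicates. The mean difference was 0.068 points over the members and -0.658 over all genes.

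Between the cell types, 2 members were called in the same direction for H2AK119ub, Cxcl2 and Ccr7, both higher in KO, and 1, Cxcl3, in opposite directions, while over all 20807 genes 412 had the same direction and 361 the opposite. For H3K27me3, 1 member, Ccl2, was higher in KO in both and none was opposite, against 354 and 227 of all genes. These counts of members are too small to compare with those of all genes. By textbook role 10 ligands were taken as homeostatic (Ccl17, Ccl19, Ccl21a, Ccl22, Ccl25, Ccl27a, Ccl28, Cxcl12, Cxcl13 and Cxcl14) and 18 as inflammatory (Ccl1, Ccl2, Ccl3, Ccl4, Ccl5, Ccl7, Ccl8, Ccl11, Ccl12, Ccl20, Ccl24, Cxcl1, Cxcl2, Cxcl3, Cxcl5, Cxcl9, Cxcl10 and Cxcl16). For H2AK119ub in KO mES cells, where 7.43% of all genes were higher and 6.65% lower, 0 homeostatic ligands were called, and 5 inflammatory ones were higher and 1 lower. The 5 include Ccl1 and Ccl8, whose limits are given above. In KO HSPCs, where 16.1% of all genes were higher and 4.04% lower, 1 homeostatic ligand was higher and 0 were lower, and 2 inflammatory ligands were higher and 1 lower.

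In K562 cells H2AK119ub was higher after siMBD6 than after siControl at 10 members (18.9%, against 11.8% of all genes) and lower at none (0%, against 1.53% of all genes). The siMBD6 lists covered more of the genome, with 175.6 and 188 Mb of the autosomes against 130.9 and 130.8 Mb. Cut to equal numbers of peaks, 8 of the 10 were still called, without CCL1 and CCL27. Equal numbers do not equalise the covered length. Peaks of exactly 501 bp made up 31.2% and 30.4% of the siMBD6 lists against 35.5% and 35.6% of the siControl lists. The part of covered length in the calls was therefore not tested. CCL21, the CCR7 ligand, had 52.6% and 56.6% after siControl and 83.2% and 81.9% after siMBD6, a narrow spread on both sides. This call was lost with 2 kb on each side and over the gene span, which was at 100% in all 4 libraries. Next to CCL21, CCL19 had 30.9% and 27% against 37.2% and 81.2%, and CCL27 had 0% and 0% against 25% and 32.6%. CCR10, the receptor of CCL27 and CCL28, had 80.8% and 74.9% after siControl and 100% in both siMBD6 libraries. The pair CCL17 and CCL22 had 60.5% and 22.0% against 96.3% and 64.0%, and 56.9% and 55.3% against 100% and 64.6%. CXCL14 had 32.1% and 48.9% against 54.2% and 82.3%, and CCL25 0% and 31.5% against 33.1% and 51.7%. CCR3, the eotaxin receptor, had 25.7% and 0% against 67.6% and 32.3%, but at its principal start, 32714 bp away, the difference was -0.25 points. CCL1 had 0% and 19.5% against 19.7% and 25%, where the nearer libraries almost touched, and its call was lost in 7 of 13 alternative settings. The call at CCL19 was lost without the second siMBD6 library and that at CCL22 without the first. The mean difference was 6.59 points over the 53 members and 4.76 over all genes.

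A peak of H2AK119ub lay in the promoter window of 11 in all 4 libraries (CCL17, CCL19, CCL21, CCL22, CCL24, CCR7, CCR9, CCR10, CXCL14, CXCL16 and CXCR5), against 26.2% of all genes, and of 27 in none, against 48.1% of all genes. CCL24 was the most covered, at 100% and 74.5% after siControl and 100% in both siMBD6 libraries. Of the 10 homeostatic ligands (with CCL21 and CCL27 as the human genes) 7 were higher after siMBD6, and of 18 inflammatory ligands (CXCL11 included, no CCL12) 1 was, CCL1, against 11.8% of all genes, and none was lower. The call at CCL27, 1 of the 7, was lost at the principal start, over the gene span, with peaks of at least 1 kb and at equal peak number. Those at CCL19 and CCL21 were also lost over the gene span. The 7 are not separate loci, since CCL19, CCL21 and CCL27 share an interval of 48.3 kb and CCL17 and CCL22 share 57.3 kb. Some arrays of inflammatory genes were almost bare. The CXCL8 to CXCL2 array at chr4:73740519-74099196 (hg38) was covered at 0% to 0.279%. The CCL5 to CCL4 array at chr17:35871491-36105621 was at 0% to 0.214%, and the CCL2 to CCL1 array at chr17:34255274-34363233 at 0.464% to 1.39%. Others were covered more, with the CXCL9 to CXCL11 array at 2.5% to 7.37% and the interval of CCL26 and CCL24 at 13.3% to 25.4%. Among homeostatic genes, the interval of CCL27, CCL19 and CCL21 was covered at 10.8% to 15.7%. That of CCL22 and CCL17, chr16:57358783-57416063, was covered at 49.9% and 45.9% after siControl and 69.1% and 63.3% after siMBD6. CXCR4 had 0% and 17.3% against 12.3% and 0%, and CXCL12 0% and 25% against 25% and 25%, with overlapping groups in both.

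**Figure D5:**
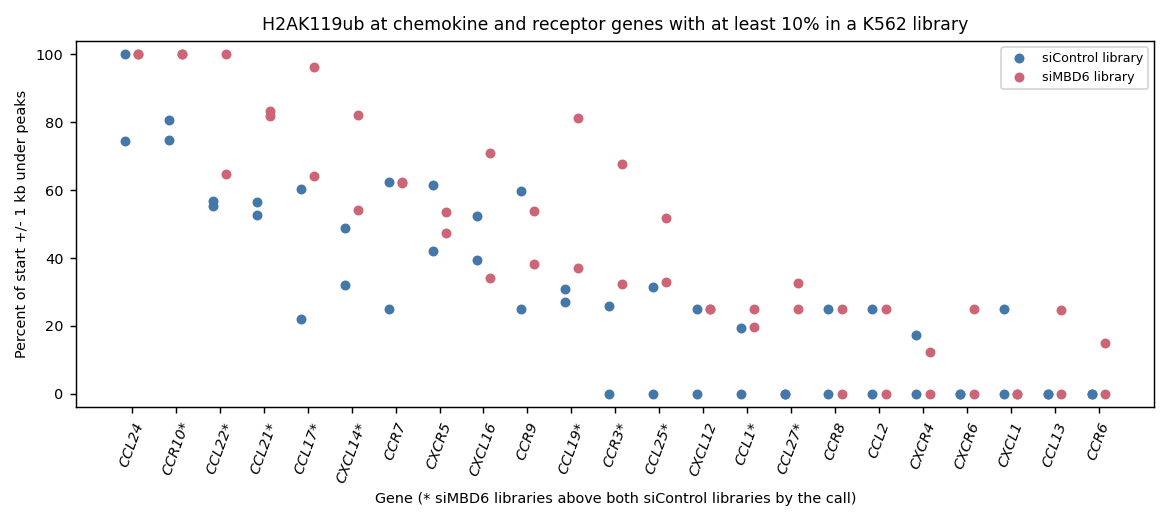
H2AK119ub promoter coverage (vertical axis, percent of the start ± 1 kb under peaks) of the 23 human members with at least 10% coverage in a K562 library, with 1 point per library. Starred genes are those called higher after siMBD6, among them CCR10 at 100% in both siMBD6 libraries, and at CCR7, CXCR5, CXCL16 and CCR9 the groups overlap or touch.

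Genes of the same system outside the rule behaved in several ways. Among 11 such genes (ligands Cx3cl1, Xcl1, Pf4 and Ppbp, receptors Cx3cr1 and Xcr1, and the scavenging receptors Ackr1, Ackr2, Ackr3, Ackr4 and Ccrl2), Cx3cl1, whose product fractalkine stays tethered to membranes, was fully covered in all 16 mouse and all 4 K562 libraries. H2AK119ub in KO mES cells was higher at Ackr1 (47.5% and 52.9% in WT, 78.4% and 76.6% in KO) and Ccrl2, and lower at Cx3cr1. In KO HSPCs it was lower at Cx3cr1 (92.5% and 53.2% against 42.8% and 51.3%) and Ackr2, and H3K27me3 was lower at Ccrl2. In K562 only ACKR2 was called, at 46.9% and 31.3% after siControl and 51.7% and 74.7% after siMBD6. Ackr3, a scavenger of Cxcl12, had H3K27me3 at 100% in all 4 HSPC libraries and at 0% to 25% in mES cells, the opposite order to Cxcr4. Among 9 genes that act behind the receptors, Arrb1 and Grk2, which desensitize them, had less H2AK119ub in KO mES cells, with Grk2 at 100% and 100% in WT and 61.2% and 31.3% in KO. Elmo1, which links receptors to Rac, had more H2AK119ub (64.7% and 67.5% against 88.7% and 77.7%) and less H3K27me3 (44.5% and 76.4% against 17.7% and 25%) in KO HSPCs. In KO mES cells its H3K27me3 was higher instead (88.4% and 89.2% in WT, 100% and 100% in KO). H3K27me3 was also lower at Rac2 in KO mES cells and at Arrb2 in KO HSPCs. GNAI2 and ARRB2 had more H2AK119ub after siMBD6.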

How the data were processed

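The deposited files were 20 peak lists, 1 per library, that give chromosome, start and end and no score or count. Reads had been trimmed by the authors (Trimmomatic 0.39, per the labels) and mapped to mm10 or hg38 with a Drosophila spike-in (Bowtie2 2.4.1), duplicates were removed (Picard), and broad peaks were called (MACS2, per the study's methods). The labels also name HOMER 4.9 without saying what it was used for. A list of positions carries no spike-in scaling, and the methods' restriction to peaks found in replicates had not been applied to these lists. Longer lists can come from deeper sequencing, and the depth is unknown.

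Coverage was computed on the autosomes. The arithmetic ran under Python 3.11.15 (numpy 2.4.6, pandas 2.3.3), and the plots used matplotlib 3.10.9. Gene starts were the outermost starts of GENCODE M21 (mouse) and 44 (human), on the builds of the lists. No gene was filtered out. Calls used the rule given in the report, over all genes, with two-sided exact permutation tests over the 6 (2 against 2) or 70 (4 against 4) assignments of libraries and Benjamini-Hochberg adjustment. The code was checked against bedtools and tested on simulated data. CpG ratios came from GRCm38 and hg38.

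Named with values were all members called for Tet2 or MBD6, the most covered members per mark and cell type, the ligand and receptor pairs described, and some of the called genes of other lists. Other members, and a few values that lists turn on, were added after their values were seen. The members and lists were chosen with earlier results of these data known. Alternatives were another minimum difference, a wider window, the gene span, peaks of at least 1 kb, equal list length, a replicate block, each replicate left out and each genotype alone. The principal transcript start, the RefSeq start and peaks seen in both replicates were added after seeing the data. The other marks and assays of the study were not used here. Values of some genes are not reported here.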

Additional observations from a re-analysis of the deposited data

Results flagged for a closer look

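Cxcl3, a neutrophil attractant, showed opposite differences between Tet2 KO and WT in the 2 cell types for H2AK119ub. Its promoter coverage differed by -24.7 percentage points in mES cells and by 42.9 points in HSPCs, and in each cell type the KO and WT libraries did not overlap. The difference between the cell types was not tested. The second WT HSPC library was at 0% for Cxcl3 and Cxcl1, where the other 3 HSPC libraries of this mark had peaks, and also for Cxcl5 and Cxcl13, where 1 and 2 KO libraries lacked a peak too. It had the shortest list of the H2AK119ub libraries in mouse. Over the whole gene span the mES difference was 0.901 points, and the call in HSPCs was lost.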

How the results depend on the processing

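With 2 libraries a group and no read counts, the calls depend on small differences in peak edges. In KO mES cells the 8 H2AK119ub calls became 3 with a minimum difference of 25 points, 3 over the gene span and 3 with peaks of at least 1 kb. The 2 H3K27me3 calls became 4 with no minimum difference, 6 with 2 kb on each side, 9 over the gene span, 1 with peaks of at least 1 kb, 1 at the principal start and 5 with peaks seen in both replicates. In HSPCs the 5 H2AK119ub calls became 3 at 25 points, and the 10 H3K27me3 calls became 6 with peaks of at least 1 kb, as did the 10 in K562. Over the gene span only Ccr7 was kept of the H2AK119ub calls in HSPCs. Of the H3K27me3 calls there, Cxcl1, Ccl1, Ccl7 and Ccr7 were kept over the span, and of the K562 calls CXCL14, CCL17, CCL22 and CCL25. Between cell types the H2AK119ub calls went from 7 to 4 with peaks of at least 1 kb, 12 in WT alone and 15 in KO alone, and the H3K27me3 calls from 12 to 20 in WT alone. Between marks they went from 13 to 7 in mES cells with peaks of at least 1 kb and from 15 to 23 in HSPCs in KO alone. The cause of these shifts was not tested.

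Leaving out each replicate gave 9 to 12, 4 to 9, 10 to 17 and 11 to 15 calls in the 4 Tet2 comparisons (mES H2AK119ub and H3K27me3, then HSPC), 11 to 14 in K562, 7 to 10 and 12 to 15 between cell types, and 13 to 15 and 15 to 17 between marks. A lone library cannot widen its group's range, so more calls arise by construction. Directions turned over the gene span at Cxcl3 (0.901), Ccr7 (-1.47) and Ccr6 (4.79) in mES cells for H2AK119ub, at Ccl4 (3.86) in HSPCs for H2AK119ub and at Ccl24 (-2.89, and -2.24 with 2 kb on each side) for H3K27me3. At the principal start they turned for Ccl1 (-16.6), Ccl27a (12.6) and CCR3 (-0.25).

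The replicate block, pairing libraries by number, gave 8, 3, 6, 11 and 10 calls in the 4 Tet2 comparisons and K562, and 10, 15, 14 and 18 in the others. The libraries share only a number, since their deviations from the group means correlated at 0.0314, -0.134, -0.0104, 0.00793 and 0.0158 across genes in the 5 treatment comparisons.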
